A study of Mus musculus with 71 samples.

Results

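The genes described here are those of the T cell receptor complex and of the T lineage: Cd3d, Cd3e and Cd3g, the CD3 chains that carry the signal of the receptor; Lck, the kinase that starts that signal; Cd4, Cd8a and Cd8b1, the co-receptor chains; Il7r, the alpha chain of the interleukin-7 receptor; and Tcf7 and Lef1, transcription factors of naive and memory T cells. They were taken by symbol, and all 10 of 10 were found among the 10508 genes for which variance-stabilised (vst) values were deposited. On a T cell, the antigen receptor has no signalling tail of its own and depends on the CD3 and zeta chains, whose tyrosine motifs are phosphorylated by Lck, a kinase held at the co-receptors CD4 and CD8. Interleukin-7 keeps resting T cells alive, and TCF-1 and LEF1, the products of Tcf7 and Lef1, hold them in a naive or memory state. In blood these genes are used mainly by T cells, although Il7r, Cd4, Lck and Tcf7 are also read in some other lymphoid or myeloid cells, so that their level in whole blood reflects both the share of T cells and the RNA that each T cell holds. In bulk samples fewer cells of a type and less RNA per cell cannot be told apart.

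RNA was sequenced from terminal whole blood of 71 female Balb/c AnNRj mice in a model of systemic sclerosis, in which hypochlorous acid (HOCl) is injected into the skin. The mice were 6 weeks old at the start, and HOCl was injected intradermally on 5 days a week for 6 weeks, while control mice received phosphate-buffered saline. The age and the injection schedule are those of the study's methods, which name no D06 or BPR21 group. The groups named in the sample titles were CTRL (11 mice), HOCL (12 mice), and HOCl-injected mice that also received one of 4 agents: HOCL + D11, HOCL + E07, HOCL + D06 and HOCL + BPR21 (12 mice each). D11 and E07 are monoclonal antibodies against galectin-3, a sugar-binding protein, given under the skin at 20 mg/kg every 5 days; what D06 and BPR21 are, their dose and their schedule were not given in the sources used here. Control and HOCl-injected mice were kept in separate cages, so that cage and group cannot be told apart. The genotype field of the labels reads HOCL for every mouse, controls included, and the groups rest on the titles.

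Libraries held 11932855 to 15948972 counts. HOCL mouse 8 had counts but no vst values, so that the vst comparisons used 11 HOCL mice. Its normalised counts, which are counts divided by a size factor for each library, lay inside the range of the other HOCL mice for all members but Lck, at 3927 against 2709 to 3688. No 2 libraries held identical counts. Each member was well covered, with a median count over the 71 mice from 1077 for Cd8a to 4671 for Tcf7 and a lowest count of 388, for Cd3e. A vst value is on a log2-like scale, and a difference of vst values is called a log2 fold change below.

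At this scale the 10 genes differed little between the groups. A gene was called where the adjusted p of limma (Benjamini-Hochberg over all 10508 genes) was at most 0.05 and the fold change at least 1.3. Of the 90 values (10 members in 9 comparisons) 1 was called, Il7r in HOCL + BPR21 against HOCL, where 2.46% of the values of all genes were called, and in 0 of the 90 did the groups fail to overlap. The 95% confidence interval, not adjusted for the number of comparisons, lay wholly inside a 1.3-fold change in either direction for 70 of the 90 values, and 16 of the 90 had an unadjusted p under 0.05, close to the 17.1% of the values of all genes.

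In HOCL against CTRL 0 of 10 members were called, where 4.96% of all genes were. All 10 log2 fold changes were below 0, from -0.31 for Cd3g to -0.03 for Cd4, with a median of -0.12. In HOCL + E07 against HOCL 0 of 10 were called, against 7.89% of all genes, with log2 fold changes from -0.04 to 0.28. HOCL + D11 and HOCL + D06 against HOCL likewise gave 0 members, against 0.0571% and 0.133% of all genes. In HOCL + BPR21 against HOCL 1 of 10 was called, against 0.638% of all genes, and all 10 log2 fold changes were above 0, from 0.03 to 0.55. Against CTRL, 0 members were called in HOCL + E07, HOCL + D11, HOCL + D06 and HOCL + BPR21, where 0.00952%, 0.0761%, 7.88% and 0.504% of all genes were called. The 4 comparisons with HOCL share the HOCL mice, and those with CTRL share the CTRL mice. At an unadjusted p under 0.05 the number of members ranged from 1 (HOCL against CTRL, HOCL + D11 against HOCL, HOCL + D11 against CTRL and HOCL + BPR21 against CTRL) to 4 (HOCL + BPR21 against HOCL). Of all genes, 17.9% had such a p in HOCL against CTRL, 14.1% in HOCL + D11, 28.5% in HOCL + E07, 12.7% in HOCL + D06 and 14% in HOCL + BPR21 against HOCL, and 16.1%, 7.6%, 23.2% and 19.9% in HOCL + D11, HOCL + E07, HOCL + D06 and HOCL + BPR21 against CTRL. edgeR's quasi-likelihood test on the counts called 1 member in HOCL + BPR21 against HOCL, Il7r, and 1 in HOCL + D06 against CTRL, Tcf7, where it called 0.62% and 8.36% of all genes.

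A test over the 6 groups at once (limma, F test) passed an adjusted p of 0.05 for 2 members, Il7r at 0.000243 and Tcf7 at 0.00794, where 18.3% of all genes passed. Cd3g (adjusted p = 0.0721) and Cd3e (adjusted p = 0.0798) were nearest to the threshold among the others, and Cd8a was farthest (adjusted p = 0.572). BPR21-treated mice had the highest group mean for 5 members and HOCL + D06 mice the lowest for 6. For Lef1 the whole range of the 6 group means was 0.25, and the SD within a group averaged 0.24, so that the order of neighbouring groups was not separated from the spread between mice.

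**Figure D1:**
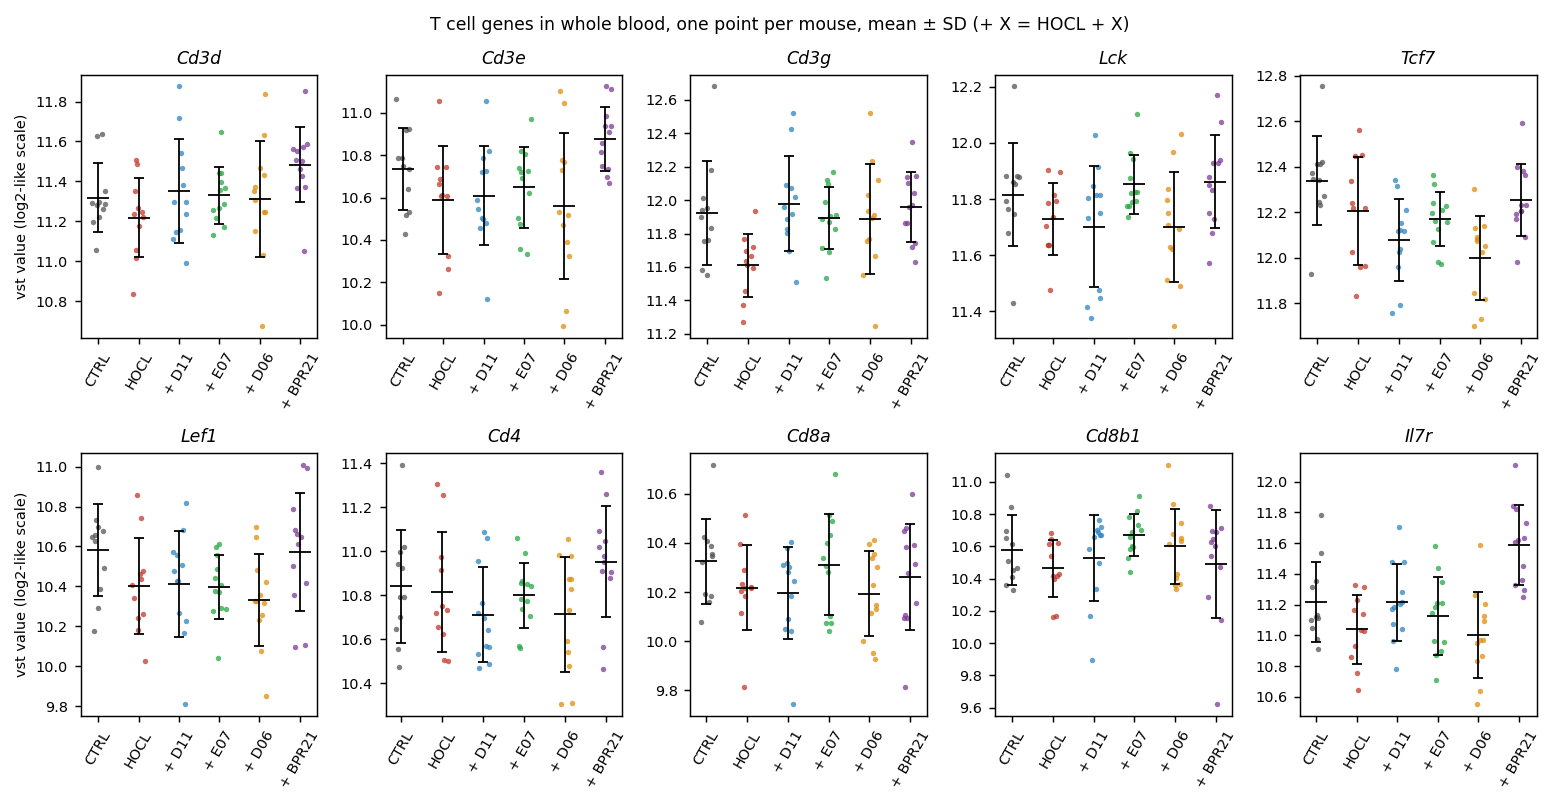
Each panel plots the vst value (log2-like scale) of 1 gene for every mouse, with the mean and SD of each of the 6 groups in black; the vertical axes differ between panels and do not start at 0. The Il7r points of HOCL + BPR21 lie between 11.25 and 12.11 and the HOCL points between 10.65 and 11.33, and in every panel the range of each group overlaps that of HOCL.

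Il7r was the member that differed most. The interleukin-7 receptor alpha chain is shared with the receptor for thymic stromal lymphopoietin and is carried by naive and memory T cells and by innate lymphoid cells. In HOCL + BPR21 the lowest, median and highest vst values were 11.25, 11.61 and 12.11. In HOCL they were 10.65, 11.04 and 11.33. All 12 HOCL + BPR21 mice lay above the HOCL median, and the ranges overlapped between 11.25 and 11.33. Il7r was 1.46-fold higher in HOCL + BPR21 than in HOCL (log2 fold change 0.55, SE 0.10, 95% interval 0.34 to 0.76, limma adjusted p = 0.0106; edgeR 0.56, adjusted p = 0.013). The call held in 23 of 23 fits that each dropped a different mouse, with log2 fold changes from 0.50 to 0.58.

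The other 4 groups lay close to each other. The CTRL mice had Il7r values of 10.92, 11.12 and 11.78 (lowest, median and highest). The HOCL + D11 mice had 10.78, 11.20 and 11.71. The HOCL + E07 mice had 10.71, 11.16 and 11.58, and the HOCL + D06 mice 10.56, 10.97 and 11.59. Each of these ranges overlapped that of HOCL + BPR21. Against CTRL, Il7r in HOCL + BPR21 was not called (log2 fold change 0.37, SE 0.11, adjusted p = 0.0771), although 12 of 12 mice lay above the CTRL median. DESeq2 called it (0.38, adjusted p = 0.0412), with 4.11% of all genes. Set directly against the other treated groups, comparisons added after the group means were seen, Il7r was higher in HOCL + BPR21 than in HOCL + E07 (log2 fold change 0.46, adjusted p = 0.0173) and HOCL + D06 (0.58, adjusted p = 0.0373). On log2(CPM of the total count + 1) neither held. There Il7r differed by 0.06 from HOCL + E07 (adjusted p = 0.749), where the median of all genes was -0.41. From HOCL + D06 it differed by 0.78 (adjusted p = 0.383), where the median of all genes was 0.17. On the vst scale Il7r did not pass against HOCL + D11 (0.37, SE 0.10, adjusted p = 0.455). Il7r was the 1 member called in the first pair and in the second, and 0 members were called in the third, where 7.26%, 0.0571% and 0% of all genes were called.

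Markers of other cells moved in the same comparison. Of 7 monocyte genes (Csf1r, Cx3cr1, Ly6c2, Ccr2, Cd14, Nr4a1 and Treml4), 4 fell in HOCL + BPR21 against HOCL, and their summed level had a median of 299 CPM (counts scaled to a fixed total per library) (93.1 to 548) in HOCL + BPR21 and 420 (284 to 600) in HOCL. Of 10 B cell genes 0 were called there, with a median log2 fold change of -0.22. Over 70 mice, with group means removed, Il7r had a correlation of -0.49 with the mean of the monocyte list. Its correlation with the mean of the B cell list was -0.45. The monocyte value was not particular to Il7r, as the members ranged from -0.49 (Cd4) to -0.23 (Cd8b1). These are descriptions, and the points share library and scaling. The part of these cells in the Il7r difference was not tested.

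The CD3 chains are described next. Cd3g, the gamma chain, had its lowest group mean in HOCL. Its lowest, median and highest vst values were 11.55, 11.90 and 12.68 in CTRL and 11.27, 11.64 and 11.94 in HOCL. The medians of the 4 treated groups lay between 11.90 in HOCL + E07 and HOCL + D06 and 11.96 in HOCL + BPR21, near that of CTRL. Every range overlapped that of HOCL. Cd3g was 0.31 lower on the log2 scale in HOCL than in CTRL (log2 fold change -0.31, SE 0.11, adjusted p = 0.0925), with 10 of 11 HOCL mice below the CTRL median; DESeq2 gave -0.34, with an adjusted p of 0.0428 and a fold under 1.3. In HOCL + E07 against HOCL it passed the adjusted p alone but was 1.22-fold higher and so under the fold threshold (log2 fold change 0.28, SE 0.08, adjusted p = 0.0194), as 15% of all genes passed the adjusted p alone there. In the fit over the 6 groups the adjusted p was 0.0845. The log2 fold changes in HOCL + D11, HOCL + D06 and HOCL + BPR21 against the same HOCL mice were 0.37 (SE 0.10, adjusted p = 0.121), 0.28 (SE 0.11, adjusted p = 0.306) and 0.35 (SE 0.09, adjusted p = 0.0594). DESeq2 called Cd3g in HOCL + D11 (0.39, adjusted p = 0.0256), with 2.25% of all genes, and limma called it in HOCL + BPR21 when HOCL mouse 12 was left out (0.38, adjusted p = 0.0371).

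Cd3d, the delta chain, and Cd3e, the epsilon chain, had their highest group means in HOCL + BPR21. Cd3d ranged there from 11.05 to 11.85 with a median of 11.50, and in HOCL from 10.84 to 11.51 with a median of 11.24. Cd3e ranged in HOCL + BPR21 from 10.67 to 11.12 with a median of 10.88, and in HOCL from 10.15 to 11.06 with a median of 10.61. The groups overlapped for both genes, and neither passed (Cd3d 0.27, SE 0.09, adjusted p = 0.139; Cd3e 0.29, SE 0.09, adjusted p = 0.128), although 12 of 12 HOCL + BPR21 mice had Cd3e above the HOCL median. In HOCL against CTRL the log2 fold changes were -0.10 for Cd3d and -0.15 for Cd3e, with adjusted p of 0.587 and 0.46. Lck had log2 fold changes between -0.12 and 0.13 in the 9 comparisons and passed in none of them; in HOCL + E07 against HOCL its value was 0.12 (SE 0.06, adjusted p = 0.184), with 11 of 12 mice above the HOCL median.

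**Figure D2:**
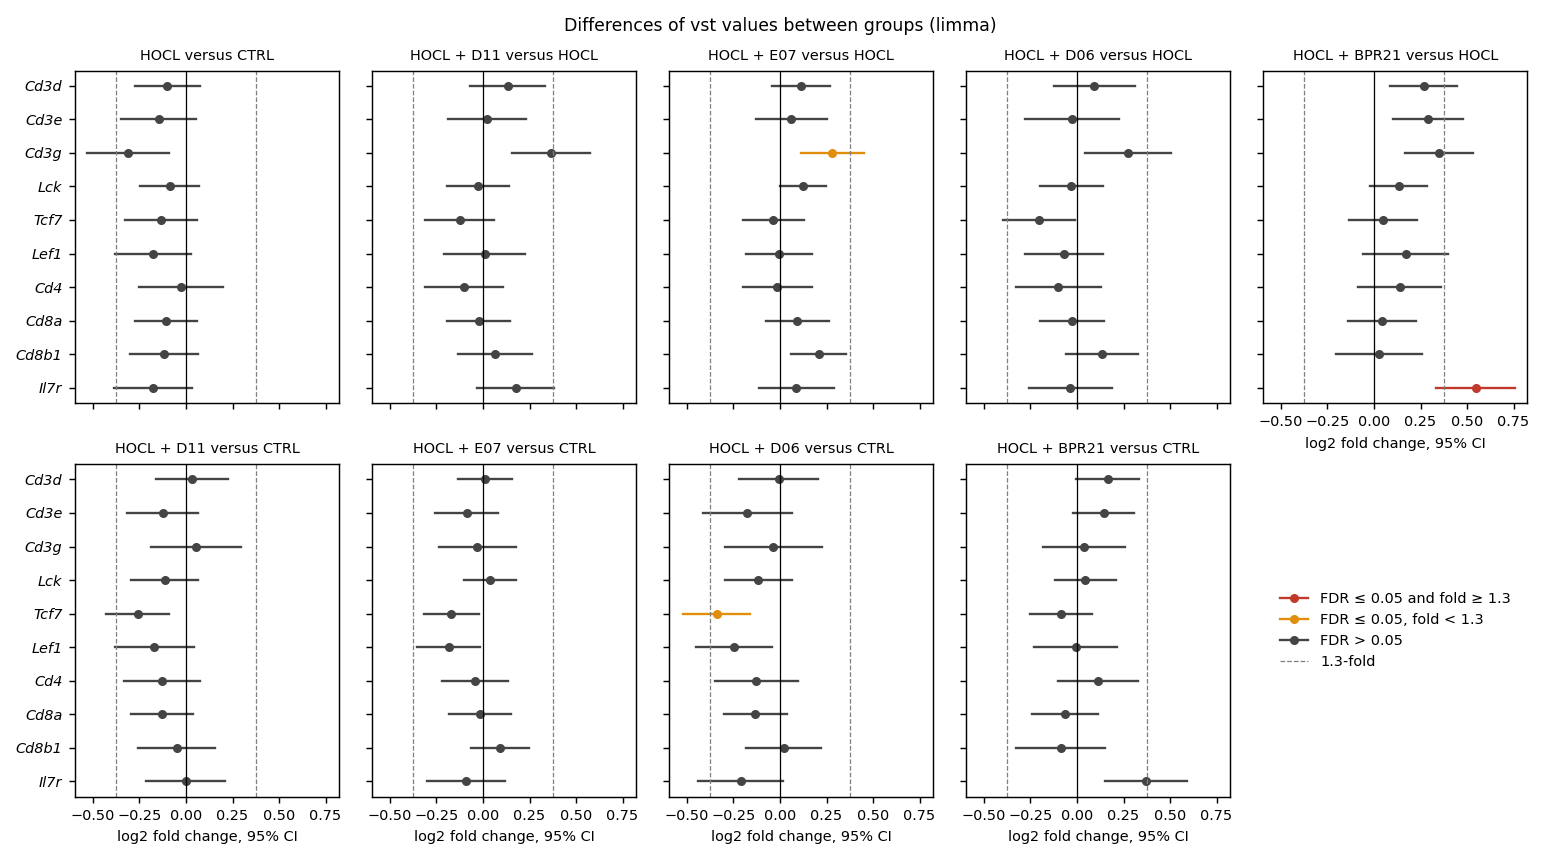
Each panel plots the log2 fold change of vst values (horizontal axis) of the 10 genes in 1 of the 9 comparisons, first group minus second, with its 95% confidence interval; dashed lines mark a 1.3-fold change. Il7r in HOCL + BPR21 against HOCL (0.55) passes both thresholds, and Cd3g in HOCL + E07 against HOCL (0.28) and Tcf7 in HOCL + D06 against CTRL (-0.34) pass the adjusted p alone.

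The 3 CD3 genes lie together on chromosome 9, from position 44880870 to 44920925 of GRCm39 (GENCODE M39). Cd3g, on the minus strand, and Cd3d, on the plus strand, start head to head with 1347 bases between them, and Cd3e, on the minus strand, ends 10863 bases beyond Cd3d. Il7r lies on chromosome 15, from 9505874 to 9530262, on the minus strand. The 250 bases before the RefSeq start of each are shown because Cd3d and Cd3g moved together most closely across mice, as described below, while Cd3e followed them less, and because Il7r was the member called. The sequences are from RefSeq on GRCm38.p6, an earlier build than that of the gene positions above, and read 5′ to 3′ on the strand of the gene. Capitals mark GGAA or TTCC (the core bound by ETS factors), TGTGGT or ACCACA (bound by RUNX factors) and CTTTGA or TCAAAG (bound by TCF-1 and LEF1).
Cd3d, chr9:44981536-44981785, plus strand: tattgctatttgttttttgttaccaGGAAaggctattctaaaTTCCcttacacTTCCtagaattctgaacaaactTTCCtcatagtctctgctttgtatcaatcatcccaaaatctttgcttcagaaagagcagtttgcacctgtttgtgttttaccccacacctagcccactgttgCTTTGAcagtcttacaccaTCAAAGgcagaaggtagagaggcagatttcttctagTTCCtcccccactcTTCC
Cd3g, chr9:44980432-44980681, minus strand: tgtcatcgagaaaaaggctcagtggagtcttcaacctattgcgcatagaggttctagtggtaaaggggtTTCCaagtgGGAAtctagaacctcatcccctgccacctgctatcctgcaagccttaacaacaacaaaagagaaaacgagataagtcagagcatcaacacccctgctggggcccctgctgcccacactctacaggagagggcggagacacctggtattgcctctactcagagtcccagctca
Cd3e, chr9:45009612-45009861, minus strand: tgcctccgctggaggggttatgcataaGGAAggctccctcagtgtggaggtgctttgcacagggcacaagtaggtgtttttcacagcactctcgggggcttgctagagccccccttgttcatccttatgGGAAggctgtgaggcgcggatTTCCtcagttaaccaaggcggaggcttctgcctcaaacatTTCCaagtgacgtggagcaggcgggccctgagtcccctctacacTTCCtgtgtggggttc
Il7r, chr15:9529877-9530126, minus strand: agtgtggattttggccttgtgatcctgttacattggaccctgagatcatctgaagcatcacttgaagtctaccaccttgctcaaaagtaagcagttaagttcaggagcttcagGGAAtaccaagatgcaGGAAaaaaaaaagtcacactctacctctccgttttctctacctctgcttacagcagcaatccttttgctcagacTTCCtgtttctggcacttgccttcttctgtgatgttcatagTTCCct

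The Cd3d window held 6 matches to the ETS core and 2 to the TCF letters, which began 73 and 54 bases before the start. The Cd3g window held 2 ETS matches, the Cd3e window 5 and the Il7r window 4, and the RUNX letters were in none of the 4 windows. Of 32851 promoter windows of this length, 93.4% held the ETS core, 14.0% the RUNX letters and 13.8% the TCF letters, on either strand. A match of letters is a description of the window, not a binding site. The table of promoters held 8 of the 10 members; Cd4 and Cd8b1 were the others.

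Tcf7 and Lef1 had their highest group means in CTRL. Tcf7 had lowest, median and highest vst values of 11.93, 12.34 and 12.75 in CTRL. In HOCL + D06 they were 11.70, 12.06 and 12.30. All 12 HOCL + D06 mice lay below the CTRL median, with overlapping ranges. Tcf7 passed the adjusted p in HOCL + D06 against CTRL, but its 1.27-fold lower level was under the fold threshold (log2 fold change -0.34, SE 0.09, adjusted p = 0.0109), where 10% of all genes passed the adjusted p alone; edgeR called it (-0.38, adjusted p = 0.015), and so did limma without CTRL mouse 6, the lowest CTRL mouse for 8 of the 10 members (-0.38, adjusted p = 0.00517). HOCL + D11 had Tcf7 values of 11.75, 12.12 and 12.34, also with 12 of 12 mice below the CTRL median (-0.26, SE 0.08, adjusted p = 0.127). In HOCL the values were 11.83, 12.22 and 12.56 (-0.13 against CTRL, adjusted p = 0.493), in HOCL + E07 11.97, 12.18 and 12.36, and in HOCL + BPR21 11.98, 12.22 and 12.59.

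Lef1 ranged from 10.18 to 11.00 in CTRL, with a median of 10.65, and from 9.85 to 10.70 in HOCL + D06, with a median of 10.33. It did not pass in HOCL + D06 against CTRL (log2 fold change -0.25, SE 0.10, adjusted p = 0.116). In HOCL + E07 12 of 12 mice lay below the CTRL median (-0.18, SE 0.08, adjusted p = 0.631). An annotated antisense gene overlaps the start of each of these genes and extends beyond it. They are A630014C17Rik at Tcf7 (median 35 counts) and Lef1os1 at Lef1 (median 36 counts), small beside the members' median counts of 4671 and 1284. The strand setting of the counting was not given in the sources used here.

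The co-receptors showed no called difference. Cd4, which marks helper T cells, ranged over the 70 mice from 10.31 to 11.39, with group means between 10.71 and 10.95, and its log2 fold changes lay between -0.13 and 0.14. Cd8a, the alpha chain of CD8 on cytotoxic T cells, ranged from 9.74 to 10.72 with group means between 10.19 and 10.32. Both genes overlapped widely in all 6 groups. Cd8b1, the beta chain, lay between 10.44 and 10.91 (median 10.67) in HOCL + E07 and between 10.16 and 10.69 (median 10.43) in HOCL. All 12 HOCL + E07 mice lay above the HOCL median of Cd8b1, and the log2 fold change missed the threshold by limma (0.21, SE 0.07, adjusted p = 0.0506) and passed the adjusted p but not the fold by edgeR (0.25, adjusted p = 0.034). The difference between the vst values of Cd4 and Cd8a within a mouse averaged from 0.49 (SD 0.20) in HOCL + E07 to 0.69 (SD 0.24) in HOCL + BPR21, given without a test.

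Levels between genes can be set side by side per length. As the median over mice of CPM per kilobase of merged exons, Cd3g was highest at 90.6, followed by Tcf7 at 88.0, Lck at 86.1 and Cd3d at 74.7. Cd8b1 stood at 49.4, Il7r at 36.3, Cd3e at 29.7, Cd4 at 28.9 and Cd8a at 22.3, and Lef1 was lowest at 10.1. The 3 CD3 chains, which act in 1 complex, stood at 90.6 (Cd3g), 74.7 (Cd3d) and 29.7 (Cd3e). Their merged exons were 3275, 2588 and 4081 bases long in the same order. The length of the transcripts in use was not measured, so that these levels depend on the annotation.

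Across mice the members moved together. With the mean of each group removed, all 45 of 45 pairs had a positive Pearson correlation over the 70 mice, with a median of 0.53 and a range from 0.17 (Cd8a and Il7r) to 0.80 (Cd3d and Cd3g). The points share library, depth and scaling. Cd3d and Cd3g, the head-to-head pair, had a correlation from 0.57 to 0.92 within the single groups, whereas Cd3g and Cd3e had 0.40 overall and Cd3e went more closely with Lck and Cd4 (0.70 each). A second set was Tcf7, Cd4 and Lef1, with correlations between 0.69 and 0.72. Il7r was least like the mean of the other members (0.45), and Tcf7 most (0.78). The genes outside the set that were most like the mean of the 10 members were Atp1b3 and Cd27 (0.78 each), Gimap4 (0.77), Skap1 and Thy1 (0.76 each) and Trac (0.74), followed by Gtf2i, Cd247, Fam78a and Plcg1. With the neutrophil and the monocyte lists all 10 members had negative correlations, the farthest from 0 being Cd4 with the neutrophil list (-0.61).

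**Figure D3:**
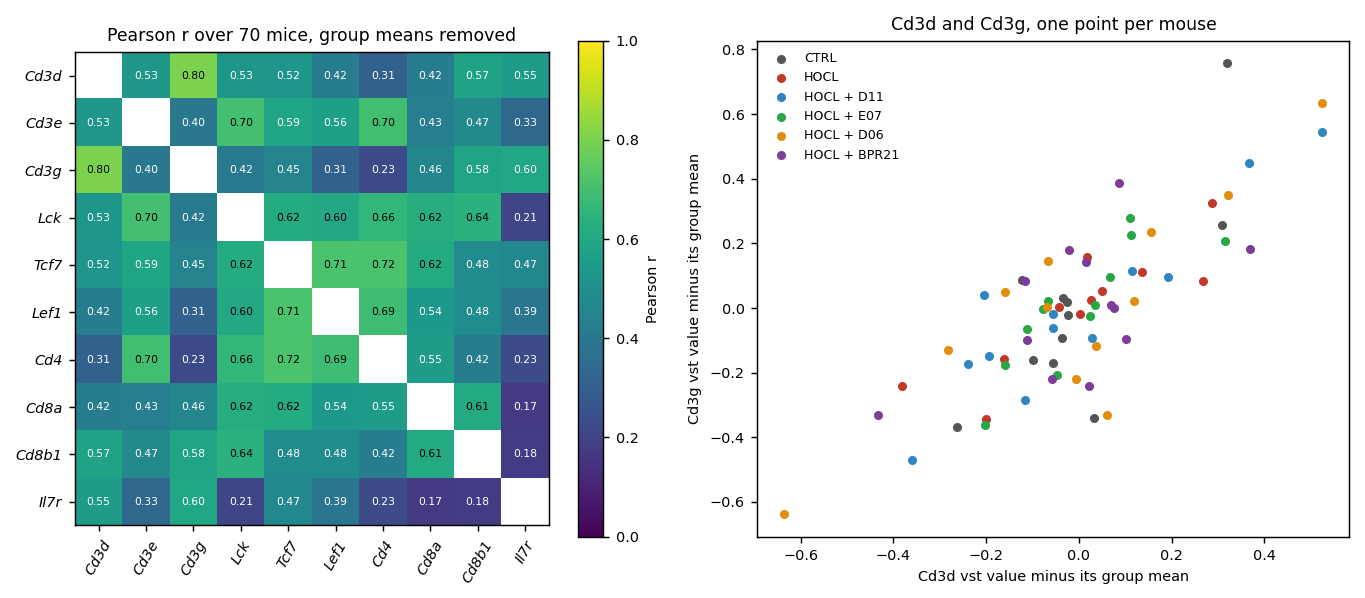
The left panel gives the Pearson correlation of each pair of genes over 70 mice after the mean of each group was removed (colour from 0 to 1), and the right panel plots Cd3g against Cd3d as vst values minus the group mean, 1 point per mouse, coloured by group. The Cd3d and Cd3g square is the highest at 0.80 and Cd3g rises with Cd3d in all 6 groups.

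The other genes of the pathway were read from lists. Over 5 lists and the receptor's constant genes, 70 T cell genes gave 627 values in the 9 comparisons, of which 7 were called, or 1.12%. Over all genes limma called 2.46% in the same comparisons. The constant genes, with 42 of the values and 2 of the calls, were tested with edgeR, so that the 1.12% mixes both tools. Of 24 genes of T cell receptor signalling, 2 were called higher in HOCL + BPR21 than in HOCL and 0 lower, where 0.638% of all genes were called. They were Trat1, an adaptor that binds the receptor complex, and Lat, the scaffold on which the signal is assembled. Trat1 had vst values of 9.04, 9.71 and 10.40 (lowest, median and highest) in HOCL + BPR21 and 8.57, 8.98 and 9.42 in HOCL, a log2 fold change of 0.68 (SE 0.13, adjusted p = 0.0113). Lat had 11.11, 11.36 and 11.90 in HOCL + BPR21 and 10.76, 11.03 and 11.20 in HOCL (0.39, SE 0.09, adjusted p = 0.0266). The groups overlapped for both. On log2(CPM of the total count + 1) 0% of all genes were called in this comparison, so that neither call held there. On the vst scale the median over the 24 genes was 0.10, against 0.00 over all genes. In the other 8 comparisons 0 of these 24 genes were called.

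Among 12 costimulation and adhesion genes, Cd5, a surface inhibitor of receptor signalling, was lower in HOCL + D06 than in CTRL (log2 fold change -0.40, adjusted p = 0.0062), and 0 were called elsewhere. Among 12 transcription factors of the lineage, Ets1 was lower in the same comparison (-0.41, adjusted p = 0.00497), with vst values of 11.38, 11.70 and 12.25 in HOCL + D06 and 11.77, 12.02 and 12.29 in CTRL. Between these groups limma called 7.88% of all genes, and Tcf7 passed the adjusted p alone. The 10 B cell genes had a median log2 fold change of -0.25 there, with 0 called, and the part of B cells was not tested. Id3, an inhibitor of E proteins that B cells and other cells also use, was higher in HOCL + E07 than in HOCL (0.64, adjusted p = 0.000574), where 7 of 10 B cell genes rose as well; the part of B cells in it was not tested. Of the naive T cell homing genes and the effector and regulatory genes, 0 were called in any of the 9 comparisons.

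The constant genes of the receptor itself were tested on the counts with edgeR. Trac, the alpha chain, had median normalised counts between 1746 in HOCL + D06 and 2143 in CTRL and was called in 0 comparisons. Trbc1 and Trbc2, near-identical copies of the beta chain whose reads the counting could split between them, were 0.31 and 0.27 higher on the log2 scale in HOCL + E07 than in HOCL, with edgeR adjusted p of 0.0161 and 0.0298 and folds under 1.3. Trdc, the delta chain of gamma-delta T cells, was called higher in HOCL + D06 (0.58, adjusted p = 0.0117) and in HOCL + BPR21 (0.71, adjusted p = 0.0298) than in CTRL, where 8.36% and 0.908% of all genes were called by edgeR. Its normalised counts were 1663, 2129 and 3091 (lowest, median and highest) in CTRL, 2235, 3249 and 6198 in HOCL + D06 and 2668, 3111 and 7799 in HOCL + BPR21. The ranges overlapped. Of the members, edgeR called Tcf7, lower in HOCL + D06 (-0.38, adjusted p = 0.015), and 0 in HOCL + BPR21 against CTRL, while limma called no member in either comparison. Trdc was 1583, 2850 and 4479 in HOCL and 2251, 3109 and 7032 in HOCL + D11. In HOCL + E07 it was 1476, 2368 and 3297. Against HOCL, 0 constant genes were called in HOCL + D06 and 0 in HOCL + BPR21, where edgeR called 0.402% and 0.62% of all genes.

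The size of these values depended on how libraries were scaled. As a share of the total count, the 10 members made up 0.227% (SD 0.0615, n = 11) in CTRL, 0.149% (SD 0.0411, n = 12) in HOCL, 0.166% in HOCL + D11, 0.217% in HOCL + E07, 0.139% in HOCL + D06 and 0.183% in HOCL + BPR21. The 12 erythroid genes made up 5.26%, 8.46%, 6.29%, 4.93%, 7.22% and 6.64% in the same order, although globin RNA had been depleted. In HOCL 12 of 12 erythroid genes rose against CTRL, in HOCL + E07 12 of 12 fell against HOCL, and in HOCL + D06 12 of 12 rose against CTRL. On log2(CPM of the total count + 1), all 10 members were called in these 3 comparisons. Their log2 fold changes in HOCL against CTRL lay between -0.81 and -0.51, where the median of all genes was -0.47. In HOCL + E07 against HOCL they lay between 0.47 and 0.80, with a median of all genes of 0.49, and in HOCL + D06 against CTRL between -0.92 and -0.55, with a median of -0.57. On this scale 52%, 65.5% and 67% of all genes were called, and 74.9% passed the test over the 6 groups, as did all 10 members. Relative to the median of all genes, the median member differed by -0.14, 0.11 and -0.14 in these comparisons, close to the medians on the vst scale of -0.12, 0.09 and -0.13. Il7r in HOCL + BPR21 against HOCL had a log2 fold change of 0.66 on this scale. It was not called (adjusted p = 0.197), where 0% of all genes were. Against CTRL its value was -0.01 in place of 0.37, where the median of all genes was -0.38.

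**Figure D4:**
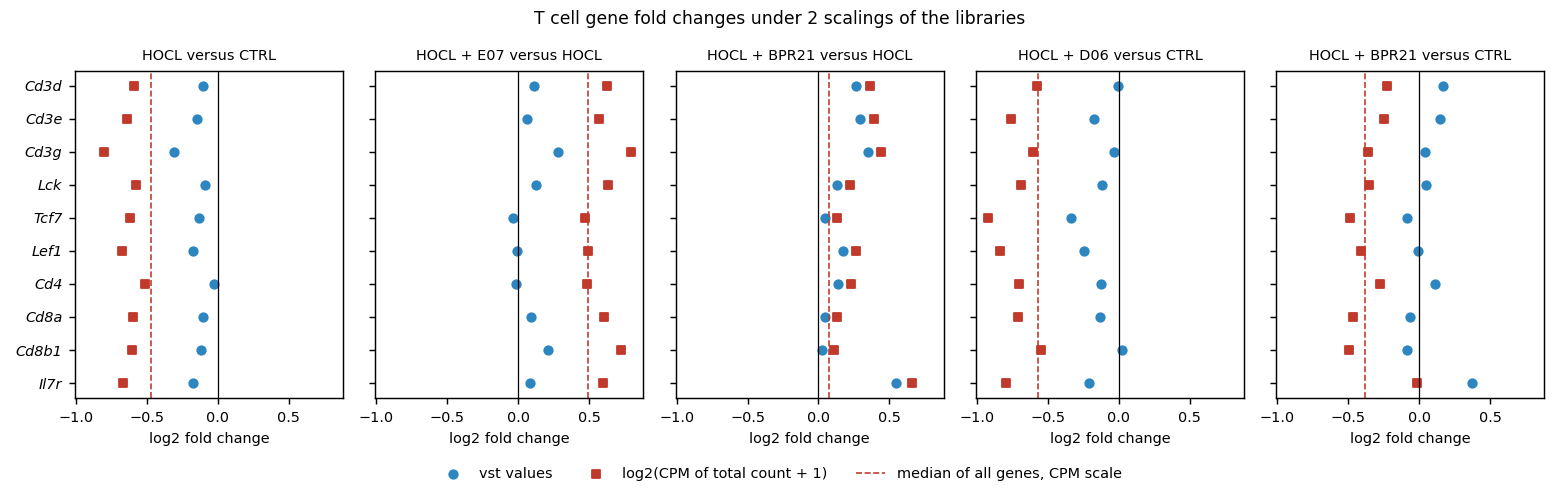
Each panel plots the log2 fold change (horizontal axis) of the 10 genes in 1 of 5 comparisons on the vst scale (blue circles) and on log2(CPM of the total count + 1) (red squares), with the median of all genes on the latter scale as a dashed line. In HOCL against CTRL the circles lie between -0.31 and -0.03. The squares lie between -0.81 and -0.51, all below the dashed line at -0.47.

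Single mice stood at the end of several members at once. CTRL mouse 6 was the lowest of its group for 8 of the 10 members, and its 8 neutrophil genes summed to 12766 CPM, the highest of CTRL, where the median was 5674. HOCL + BPR21 mouse 11 was the lowest for 7 members, with 14269 CPM of the neutrophil genes against a median of 3908 and a highest value of 20763. The other groups did not share a direction. The mouse lowest for most members had 4302 CPM in HOCL (median 4717) and 4743 in HOCL + D11 (median 4493). It had 6580 CPM in HOCL + E07 (median 5190) and 1764 in HOCL + D06 (median 3817). Leaving out CTRL mouse 6 changed the call of Tcf7 as given above, and leaving out HOCL + BPR21 mouse 11 changed no call of a member in HOCL + BPR21 against HOCL. Of the listed markers of other cells, Klra8 (natural killer cells) and Epx (eosinophils) had a median of 0 counts. Other markers of these cells were read, with medians of 510 counts for Ncr1 and 2306 for Gzma (natural killer cells). For eosinophils the medians were 527 for Ccr3 and 109 for Siglecf, although Prg2 had 12.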

How the data were processed

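Whole blood RNA of 71 mice was sequenced by the authors after poly(A) selection, globin depletion and a stranded library preparation. Per the submitters' processing notes and the study's methods, reads were trimmed with Cutadapt, aligned with STAR to mm39 and counted per gene with featureCounts; the annotation release and the strand setting were not given in the sources used here. Whole-number counts per gene for 55416 genes in 71 mice were deposited, as was a table of log2-like vst values made by the authors with DESeq2 for 10508 genes in 70 mice, from which, per the study's methods, genes that do not code for protein and low genes were removed (receptor constant genes such as Trac are among those kept).

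Groups were taken from the sample titles. Each of the 9 comparisons was fitted on the vst values of its own 2 groups with limma 3.58.1 (R 4.3.3), with Benjamini-Hochberg adjustment over all 10508 genes; a call needed an adjusted p up to 0.05 together with a 1.3-fold difference or more. An F test covered the 6 groups. Receptor constant genes were tested on counts with edgeR 4.0.16 (quasi-likelihood, TMM). Normalised counts used DESeq2 1.42.0 size factors. Pairwise p-values are two-sided, and all p-values measure the spread between mice. Named genes were the 10 members, any list gene called (at most 4 per list and comparison), and the 10 genes most like the mean of the members. The members and lists were chosen with earlier results of these data known; 1 further gene of the monocyte list as first drawn up is not reported here. The tests were checked on simulated data. Alternatives were edgeR with 3 filters, DESeq2, a fit over the 6 groups, log2(CPM of the total count + 1), trended and robust variances, a replicate block, the adjusted p alone, and leaving out single mice. Positions are from GENCODE M39 (GRCm39), promoters from RefSeq (GRCm38.p6). Motifs were searched on both strands.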

Additional observations from a re-analysis of the deposited data

How the results depend on the processing

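Scaling changed the calls most. On log2(CPM of the total count + 1) 10 members were called in HOCL against CTRL, 10 in HOCL + E07 against HOCL, 10 in HOCL + D06 against CTRL and 10 among the 6 groups, in place of 0, 0, 0 and 2; 52%, 65.5%, 67% and 74.9% of all genes were called there. On that scale the count in HOCL + BPR21 against HOCL was 0 in place of 1. Il7r in HOCL + BPR21 against CTRL turned from 0.37 to -0.012 there, where the median of all genes was -0.38. Of the 90 log2 fold changes 15 changed sign on that scale, 5 with edgeR and 3 with DESeq2. The cause was not tested. edgeR called 1 member, Tcf7, in HOCL + D06 against CTRL under each of the 3 filters, and DESeq2 called 1 in HOCL + D11 against HOCL (Cd3g) and 1 in HOCL + BPR21 against CTRL (Il7r), where it called 2.25% and 4.11% of all genes. The adjusted p alone called 1 in HOCL + E07 against HOCL (Cd3g) and 1 in HOCL + D06 against CTRL (Tcf7). Mice with the same number are different animals. Their deviations from the group means had a mean correlation of 0.01 to 0.15 over the comparisons. For mice with different numbers it was -0.01 to 0.0005. The highest was in HOCL + E07 against CTRL, where 7 of 11 pairs were over 0.1. Whether the number marks something that the mice share was not tested. With a replicate block 1 member, Il7r (0.39, adjusted p = 0.0345), was called in HOCL + BPR21 against CTRL in place of 0, with 5.08% of all genes in place of 0.504%, and the test over the 6 groups also passed for Cd3g (adjusted p = 0.0339), with 18.9% of all genes. Leaving out single mice gave 1 to 2 members in HOCL + BPR21 against HOCL (2 without HOCL mouse 12) and 0 to 1 in HOCL + D06 against CTRL (1 without CTRL mouse 6); these fits were added after seeing the data. In the 4 comparisons where leaving out single mice was planned, the count stayed at 0. The fit over the 6 groups and the trended, robust variances changed no count of members in the 9 comparisons, although Cd3g in HOCL + E07 against HOCL no longer passed the adjusted p in the former (0.0845).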
